A study of Oryza sativa with 14 samples.

Results

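The genes described here encode the light-harvesting antenna of photosystem I (LHCI) in rice, the nuclear Lhca family. They are 6 of the 38978 genes of a deposited RPKM table (reads scaled for the length of a gene and the depth of its library) and were taken by their locus identifiers. Os07g0577600 is annotated there as a type II chlorophyll a/b-binding protein of photosystem I and Os02g0197600 as type III. Os08g0435900 is annotated as the type IV protein of light-harvesting complex I, Os02g0764500 as similar to Lhca5, and Os09g0439500 carries the symbol Lhca6 and a type II description. They are called Lhca2, Lhca3, Lhca4, Lhca5 and Lhca6 here, and Os06g0320500, annotated as light-harvesting complex I with no type given, keeps its identifier.

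Lhca proteins bind chlorophyll and carotenoids and pass excitation energy to the reaction centre of photosystem I. In the plant photosystem, Lhca1 to Lhca4 form a belt of heterodimers on a single side of the core, in which Lhca1 pairs with Lhca4 and Lhca2 with Lhca3. Lhca4 is known for carrying long-wavelength (red) chlorophylls. Lhca5 and Lhca6 are minor proteins, and in Arabidopsis both link photosystem I to the NADH dehydrogenase-like complex of cyclic electron flow. Transcripts for antenna proteins are known in plants to respond to light and to the circadian clock.

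RNA-seq was done on whole seedlings of osnat10, a line named after N-acetyltransferase 10, the enzyme that makes N4-acetylcytidine (ac4C) in RNA, and of wild type (WT) rice of the cultivar Kitaake, with 3 biological replicates per genotype. Plants of both genotypes were kept on Yoshida solution under short days (10 h light, 14 h dark). The sources used here do not give the kind of mutation in osnat10, the age of the seedlings, the number pooled per library or the hour of harvest. Libraries for ac4C immunoprecipitation are also listed and were not analysed here. The study's title names photosynthesis, and the comparison made here is the RNA level of each antenna gene in osnat10 against WT.

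Depth recovered from the RPKM values was 13770857 to 14857980 reads in osnat10 libraries and 13688629 to 15583776 in WT libraries. WT replicate 1 stood apart from WT replicates 2 and 3 for antenna genes, so results are given with and without it. It was the highest library for all 6 Lhca genes, all 8 listed photosystem II antenna genes and all 10 tested photosystem I core genes. The same held for 5 of 7 tested Rubisco small subunit and activase genes, and for 11.1% of all tested genes. The weight of WT replicate 1 was not limited to photosynthesis. Leaving it out moved the limma calls (adjusted p under 0.05) from 37 to 2713 of all 24380 tested genes. Leaving out WT replicate 3 instead also raised the calls, to 886 higher and 99 lower in osnat10. All of the 3 root markers (RCc3, LSI1 and LSI2) and 7 of 9 annotated Rubisco small subunit and activase genes were detected in each library, and the other 2 were at 0 throughout. The summed RPKM of the root markers was 804 to 898 in osnat10 and 388 to 718 in WT, without overlap, as for the RPKM of 25.0% of all tested genes. This gap came from RCc3, with a mean of 590 RPKM in osnat10 and 224 RPKM in WT (limma adjusted p = 0.11), while LSI1 and LSI2 had osnat10 means 0.775 and 0.801 times their WT means and overlapped between genotypes. That of the Rubisco genes was 7356 to 10176 in osnat10 and 5252 to 22758 in WT. In whole seedlings, fewer cells of a type and less RNA per cell cannot be told apart, and the part of the tissue mixture in the antenna values was not tested. No row of the table is annotated as the targeted gene, and its level was not analysed here.

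All 6 antenna genes were highest in WT replicate 1, low in WT replicates 2 and 3, and close together in the osnat10 libraries. The most abundant was Os06g0320500, with 462, 465 and 435 RPKM in osnat10 replicates 1, 2 and 3 and 1261, 104 and 86.5 RPKM in WT replicates 1, 2 and 3. Every osnat10 value thus lay below WT replicate 1 and above the other WT libraries. Lhca4, the type IV gene, had 271, 259.8 and 229 RPKM in osnat10 and 1079, 22.3 and 16.4 RPKM in WT. The low WT values rested on 506 and 392 reads, so counting error is small beside the differences between libraries. Lhca4 was the member with the widest WT spread, 65.8-fold between the highest and lowest library, against 1.18-fold in osnat10.

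The other paired antenna genes followed the same order of libraries. Lhca2 had 236, 243 and 199.6 RPKM in osnat10 and 721, 77.9 and 63.4 RPKM in WT. Lhca3 had 172, 161 and 153 RPKM in osnat10 and 582, 38.4 and 26.9 RPKM in WT. For both genes the osnat10 libraries again fell between WT replicate 1 and the other WT libraries.

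The minor members varied less. Lhca5 had 65.1, 68.6 and 59.5 RPKM in osnat10 and 156, 61.3 and 46.8 RPKM in WT. Here osnat10 replicate 3 lay below WT replicate 2, so the osnat10 libraries did not all lie between the WT values. Lhca6 had 89.6, 116 and 93.9 RPKM in osnat10 and 183, 78.5 and 76.7 RPKM in WT. The ratio of the highest to the lowest WT library was 3.33 for Lhca5 and 2.39 for Lhca6, compared with 11.4 to 65.8 for the other members.

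**Figure D1:**
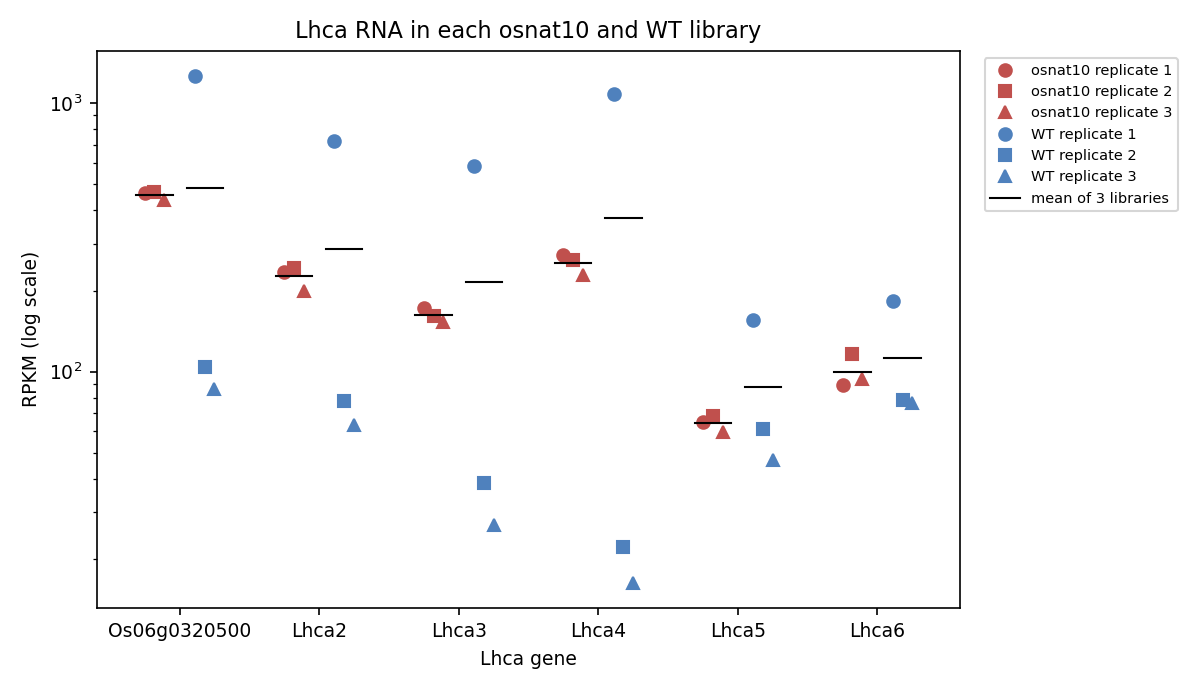
RPKM (log scale) of each Lhca gene in the 3 osnat10 libraries (red, left of each pair) and the 3 WT libraries (blue, right), with black lines at the arithmetic means. The osnat10 points sit close together, while WT replicate 1 (circle) lies above and WT replicates 2 and 3 lie below them for 5 of the 6 genes, with Lhca5 the exception.

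Set against all genes, the spread of the antenna genes was wide in WT and ordinary to narrow in osnat10. On the log2(RPKM + 0.5) scale, the WT range of Lhca4 was 6.0, and 0.0861% of the 24380 tested genes (21 genes) had a WT range as large. The share was 0.418% for Lhca3 (range 4.41), 0.718% for Os06g0320500 (3.86) and 0.956% for Lhca2 (3.50), but 7.96% for Lhca5 (1.72) and 17.4% for Lhca6 (1.25). In osnat10 the ranges were 0.10 to 0.38, and 45.3% to 93.0% of tested genes had a range as large. In 5 of the 6 antenna genes, all osnat10 libraries lay below WT replicate 1 and above WT replicates 2 and 3. This pattern was seen in 3.70% of all tested genes. It was not planned beforehand, and 6 of 10 tested photosystem I core genes also showed it.

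The antenna also differed in make-up between libraries, as RPKM is scaled by length and allows levels of different genes to be compared. In the 3 osnat10 libraries and in WT replicate 1 the order from highest to lowest RPKM was Os06g0320500, Lhca4, Lhca2, Lhca3, Lhca6 and Lhca5. In WT replicates 2 and 3 it was Os06g0320500, Lhca6, Lhca2, Lhca5, Lhca3 and Lhca4. Lhca6 and Lhca2 were nearly level in WT replicate 2, at 78.5 and 77.9 RPKM, and their order there is no difference. Lhca4 therefore stood second in 4 libraries and last in the other 2.

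As shares of the summed Lhca RPKM, Lhca4 took 20.9%, 19.8% and 19.6% in osnat10 and 27.1%, 5.82% and 5.18% in WT. Lhca5 and Lhca6 together took 11.9%, 14.1% and 13.1% in osnat10 and 8.52%, 36.6% and 39.0% in WT. The share of the minor members was thus highest in the libraries with the lowest Lhca total. Os06g0320500 was the only member whose share did not overlap between genotypes, at 35.4% to 37.2% in osnat10 and 27.2% to 31.7% in WT. This share was singled out after its values were seen. No background was made for shares, as the 25.0% of tested genes without overlap refers to RPKM, an unlike measure.

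**Figure D2:**
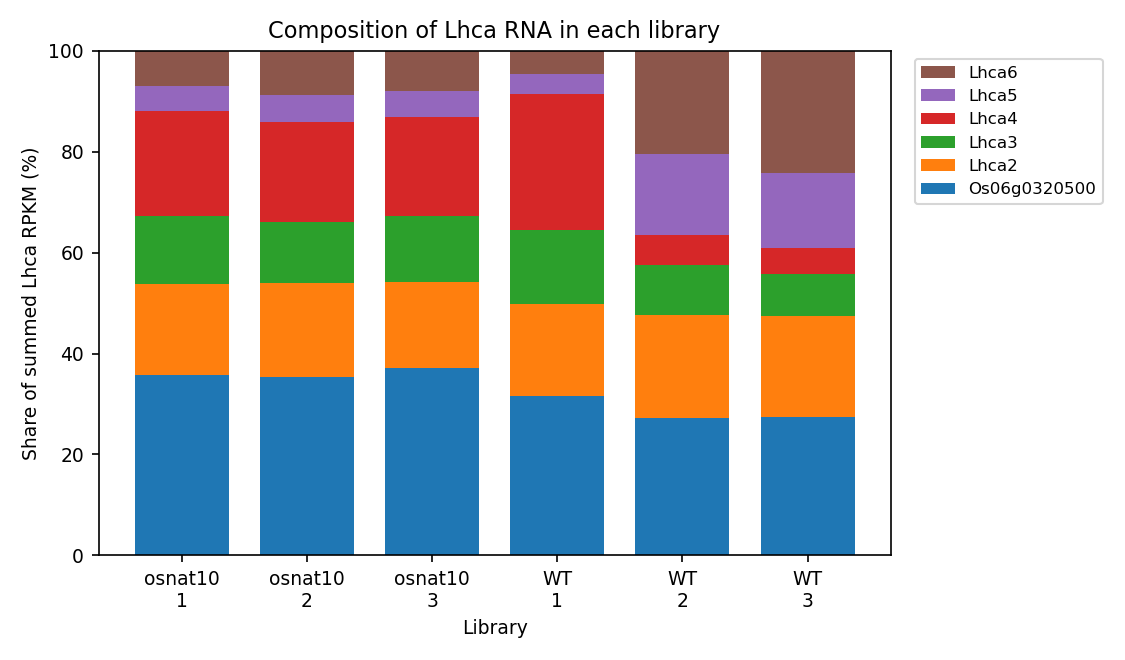
Share of the summed Lhca RPKM taken by each Lhca gene (stacked, in percent) in the 3 osnat10 libraries (left) and the 3 WT libraries (right). Lhca4 (red) fills 19.6% to 20.9% in osnat10 and 27.1% in WT replicate 1, against 5.82% and 5.18% in WT replicates 2 and 3, where Lhca5 and Lhca6 are broader.

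Ratios between members give the same contrast within a library. The RPKM of Lhca4 divided by that of Os06g0320500 was 0.587, 0.558 and 0.526 in osnat10 and 0.855, 0.214 and 0.190 in WT. Lhca3 divided by Lhca2, whose proteins form a heterodimer, was 0.730, 0.661 and 0.767 in osnat10 and 0.807, 0.494 and 0.424 in WT. Lhca5 divided by Lhca6 moved less, at 0.727, 0.590 and 0.633 in osnat10 and 0.849, 0.781 and 0.610 in WT. For each of these ratios the genotypes overlapped.

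**Figure D3:**
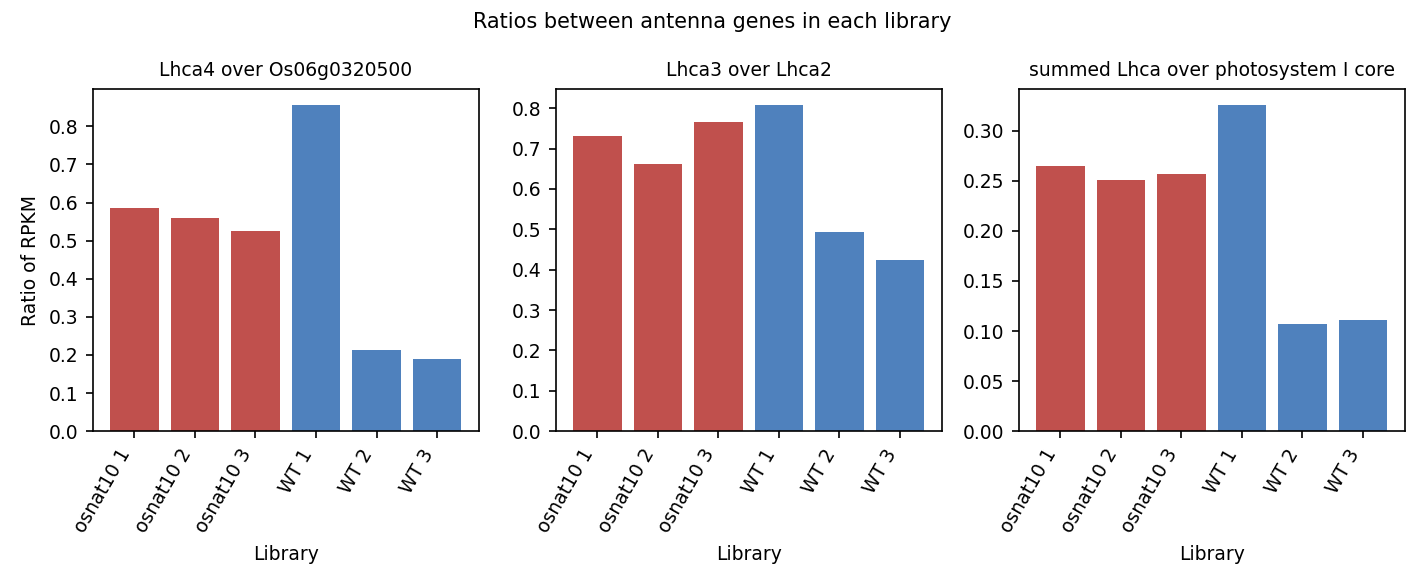
RPKM of Lhca4 over Os06g0320500, of Lhca3 over Lhca2, and of all Lhca over all photosystem I core genes, as bars for the 3 osnat10 libraries (red, left) and the 3 WT libraries (blue, right). In each panel WT replicate 1 is highest and WT replicates 2 and 3 are lowest, with the osnat10 libraries between (0.251 to 0.264 for Lhca over the core).

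In the comparison of osnat10 with WT, no antenna gene passed the test. Arithmetic means were lower in osnat10 for all 6 genes, while means on the log2 scale, which weigh the high WT library less, were higher in osnat10 for 4 of the 6. Os06g0320500 averaged 454 ± 16.5 RPKM in osnat10 and 484 ± 673 RPKM in WT (SD, n = 3 each). Lhca4 averaged 253 ± 21.7 RPKM in osnat10 and 372 ± 612 RPKM in WT. In limma on log2(RPKM + 0.5), the log2 fold change of Lhca4 was 1.76 (SE 1.40, adjusted p = 0.53), and that of Os06g0320500 was 1.01 (SE 0.91, adjusted p = 0.58). Neither difference exceeded the spread between WT libraries.

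Lhca3 averaged 162 ± 9.69 RPKM in osnat10 and 216 ± 317 RPKM in WT, and Lhca2 averaged 226 ± 23.4 RPKM in osnat10 and 288 ± 376 RPKM in WT. Their limma log2 fold changes were 0.93 (SE 1.01, adjusted p = 0.65) and 0.56 (SE 0.82, adjusted p = 0.75). Lhca5 averaged 64.4 ± 4.63 RPKM in osnat10 and 88.0 ± 59.2 RPKM in WT, with a log2 fold change of -0.25 (SE 0.40, adjusted p = 0.77). Lhca6 averaged 99.9 ± 14.4 RPKM in osnat10 and 113 ± 61.1 RPKM in WT, with a log2 fold change of -0.06 (SE 0.34, adjusted p = 0.94). All 6 genes passed the filter on low RPKM, and all 6 had overlapping genotypes. Over all tested genes limma called 37, or 0.152%, of which 30 (0.123%) were higher and 7 (0.0287%) lower in osnat10, and 4693 had an unadjusted p under 0.05, none of them an antenna gene.

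The median log2 fold change of the 6 genes was 0.74, against 0.11 for all tested genes. It was 1.96 without WT replicate 1, 0.22 without WT replicate 2 and 0.02 without WT replicate 3. Without WT replicate 1, 4 of the 6 were called higher in osnat10, where 6.28% of all tested genes were called higher, 4.84% lower and 11.1% in either direction. These were Lhca4 (log2 fold change 3.69, SE 0.17, limma adjusted p = 0.00050), Lhca3 (2.31, SE 0.18, adjusted p = 0.0015), Os06g0320500 (2.25, SE 0.15, adjusted p = 0.00096) and Lhca2 (1.67, SE 0.16, adjusted p = 0.0034). Lhca5 (0.26, adjusted p = 0.32) and Lhca6 (0.35, adjusted p = 0.18) were not. That fit keeps only the low WT libraries, so genotype and the difference within WT cannot be told apart in it. The log2 fold change of Lhca2 turned to -0.074 without WT replicate 3.

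**Figure D4:**
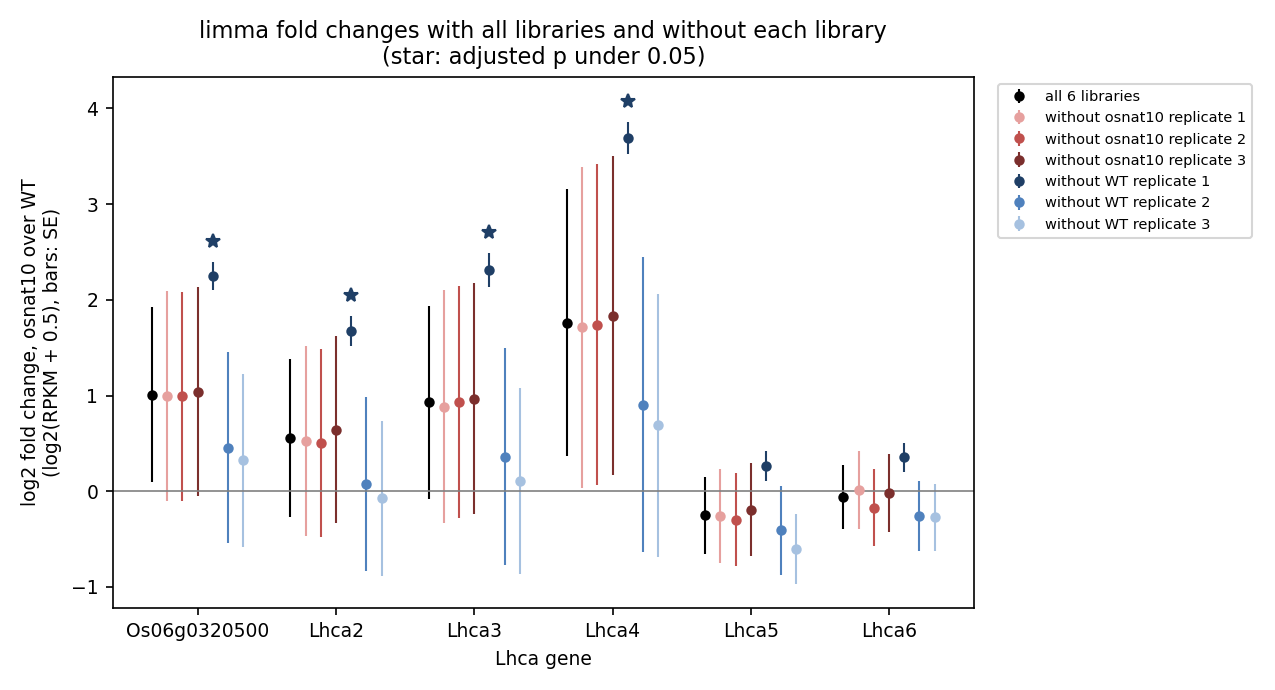
limma log2 fold change (osnat10 over WT, on log2(RPKM + 0.5), bars SE) of each Lhca gene with all 6 libraries (black) and without each library in turn, with a star at an adjusted p under 0.05. Only Os06g0320500, Lhca2, Lhca3 and Lhca4 carry a star, and only without WT replicate 1. Lhca5 runs from -0.60 to 0.26 and Lhca6 from -0.27 to 0.35 as libraries are left out.

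Set against single WT libraries, the direction depended on the library. The osnat10 mean of Lhca4 was 0.235 times WT replicate 1, 11.4 times WT replicate 2 and 15.4 times WT replicate 3. For Os06g0320500 these ratios were 0.360, 4.37 and 5.25. For Lhca6 they were 0.545, 1.27 and 1.30. In the authors' deposited table, which compares the genotypes with DESeq2, the log2 fold change was negative for all 6 genes, from -0.82 (SE 1.61) for Lhca4 to -0.33 (SE 1.20) for Os06g0320500. The authors' deposited table lists no p-value for Os06g0320500, Lhca2, Lhca3 and Lhca4, as for 148 of its 32190 genes. It lists an adjusted p of 0.51 for Lhca5 and 0.73 for Lhca6, and an adjusted p under 0.05 for 6.20% of the genes that have one.

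The antenna of photosystem II, encoded by Lhcb genes, showed the same order of libraries with a wider WT spread. All of its 8 listed genes lay between the WT extremes in osnat10, with a median log2 difference of WT replicate 1 from WT replicates 2 and 3 of 5.20 and 5.16, compared with 3.40 and 3.68 for Lhca. None of the 8 was called with all libraries (median log2 fold change 2.11), where 0.152% of all tested genes were. Without WT replicate 1, 8 were called higher, where 6.28% of all tested genes were. As for Lhca, that fit keeps only the low WT libraries, so genotype and the difference within WT cannot be told apart in it. Lhcb1.1, a major trimeric antenna gene, had 854, 602 and 759.98 RPKM in osnat10 and 3096, 364 and 131 RPKM in WT. CP29, a monomeric antenna protein next to the photosystem II core, had 703, 756 and 638 RPKM in osnat10 and 1492, 145 and 133 RPKM in WT. CAB2R, another major antenna gene, had 665, 477 and 641 RPKM in osnat10 and 1992, 22.3 and 24.8 RPKM in WT. Summed over each family, Lhca RPKM was 0.298 to 0.368 of Lhcb RPKM in osnat10 and 0.329, 0.580 and 0.760 of it in WT replicates 1, 2 and 3, and the genotypes overlapped.

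Nuclear subunits of the photosystem I core, to which the Lhca belt attaches, varied less than the antenna. Of 11 annotated genes, 10 were tested and 0 were called in limma, with a median log2 fold change of 0.06 and 0 at an unadjusted p under 0.05. Of all 24380 tested genes, 0.152% were called and 4693 had an unadjusted p under 0.05. Without WT replicate 1, 5 were called higher and 0 lower, against 6.28% and 4.84% of all tested genes. In that fit, too, genotype and the difference within WT cannot be told apart. PsaE, a subunit on the stromal side, had 809.5, 807 and 681 RPKM in osnat10 and 1363, 807 and 577 RPKM in WT. PsaL, which sits on the side of the core that binds mobile antenna, had 672, 692 and 638 RPKM in osnat10 and 1447, 718 and 635 RPKM in WT. PsaD, the docking subunit for ferredoxin, had 666, 726 and 698 RPKM in osnat10 and 1892, 456 and 362 RPKM in WT. Summed Lhca RPKM divided by summed core RPKM was 0.264, 0.251 and 0.257 in osnat10 and 0.325, 0.107 and 0.111 in WT, so the antenna made up less of the photosystem I RNA in WT replicates 2 and 3 than in the other 4 libraries. The median log2 difference of WT replicate 1 from WT replicates 2 and 3 was 1.96 and 2.32 for the core genes. A core gene chosen after its values were seen, PsaN (Os12g0189400), was 27.0 and 26.7 times as high in WT replicate 1 as in WT replicates 2 and 3.

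OsGLK1 and some of the listed clock genes also varied widely between WT libraries, while other clock genes varied little. On the log2(RPKM + 0.5) scale the WT range was 4.54 for OsGLK1. Its median was 0.96 for the 9 clock genes and 0.70 for all tested genes. OsGLK1, a transcription factor that in Arabidopsis and rice activates antenna and chlorophyll synthesis genes, had 14.96, 10.2 and 10.9 RPKM in osnat10 and 35.7, 1.06 and 1.56 RPKM in WT. CCA1, a clock MYB factor with a peak of RNA near dawn, had 62.3, 50.3 and 50.9 RPKM in osnat10 and 162, 3.71 and 2.52 RPKM in WT. GI, a clock gene with a peak late in the day, had 93.8, 98.9 and 88.4 RPKM in osnat10 and 72.6, 198 and 178 RPKM in WT, so WT replicate 1 was here the lowest library. OsPCL1, an evening clock gene, had 40.5, 56.5 and 40.6 RPKM in osnat10 and 46.5, 117 and 103 RPKM in WT. None of the 9 clock genes was called in limma with all libraries (2 higher, 7 lower, median log2 fold change -0.27, 3 at an unadjusted p under 0.05), nor was OsGLK1 (1.34, SE 1.06, adjusted p = 0.53). Over all 24380 tested genes, 4693 had an unadjusted p under 0.05. Without WT replicate 1, 2 clock genes were called higher and 4 lower, where 6.28% of all tested genes were called higher and 4.84% lower. OsGLK1 was also called higher there (log2 fold change 2.78, SE 0.25, limma adjusted p = 0.0027). Genotype and the difference within WT cannot be told apart in that fit. The part of the clock, the hour of harvest or OsGLK1 in the antenna values was not tested.

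**Figure D5:**
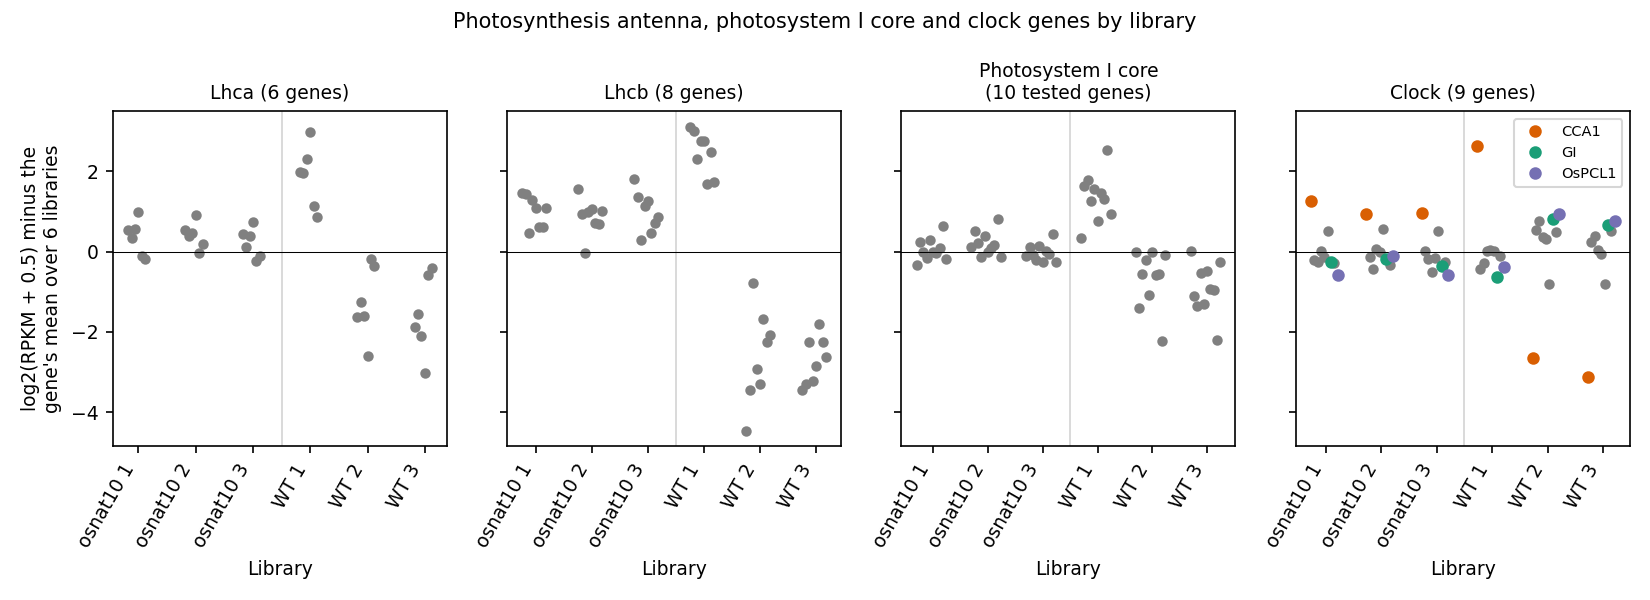
log2(RPKM + 0.5) of each gene minus its mean over the 6 libraries, for Lhca, Lhcb, tested photosystem I core and clock genes, with osnat10 libraries left and WT libraries right in each panel and 1 point per gene. Antenna genes and CCA1 (orange) are highest in WT replicate 1 and, except for Lhca5, lowest in WT replicates 2 and 3, while GI (green) and OsPCL1 (purple) are highest in WT replicates 2 and 3.

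Outside both antenna families, the genes most like the mean Lhca profile were sought among 10075 genes with a mean RPKM of 10 or more, by Pearson's r over the 6 libraries. All genes are compared over the same 6 libraries, and 321 of these genes (3.19%) had an r above 0.9. The closest was PsaK, a photosystem I core subunit next to the antenna belt (r = 0.999), with 635, 687 and 573 RPKM in osnat10 and 1542, 245 and 211 RPKM in WT. Next came OsStr11, annotated as similar to an extracellular calcium sensing receptor (r = 0.999), Os03g0583800 of the Mpv17/PMP22 family (r = 0.998), the ABCF-type gene OsABCF6 (r = 0.997) and Os11g0644600, a conserved gene of no annotated function (r = 0.997).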

How the data were processed

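RNA-seq was measured in 3 osnat10 and 3 WT seedling libraries, and the labels' replicates are biological. Per the file headers, the authors deposited RPKM for 38978 genes. Its columns name a genotype and a replicate but no assay, and were taken as RNA-seq, the listed assay with 3 replicates per genotype. A second table, deposited by the authors with DESeq2 column names, holds a mean normalised signal, a log2 fold change with its SE, a Wald score (not used, sign opposite to the fold change), and a p-value and adjusted p-value. IRGSP-1.0, DESeq2, STAR 2.5.3a and deepTools are listed in the submitters' processing notes. The sources used here do not give the read counter, annotation release or use of strand, so reads of similar antenna gene copies may be split. A higher fold change means higher in osnat10, as mean RPKM showed for all 1681 called genes.

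Whole reads were recovered from RPKM steps and the deposited mean signal (99.98% of 174814 values within 0.05 reads). log2(RPKM + 0.5) was tested with limma 3.58.1 (R 4.3.3, intensity trend) on 24380 genes that reached 0.5 RPKM in 3 or more libraries, with Benjamini-Hochberg adjustment over all of them and calls at 0.05. Folds on this scale understate changes of low genes. Both steps were tested on simulated data. In the limma simulation all genes of a library shared the same spread, so it does not cover the wide WT spread of the antenna genes. Python 3.11.15, numpy 2.4.6, pandas 2.3.3 and matplotlib 3.10.9 were used. Members and lists were chosen with earlier results of these data known. Besides the antenna genes, at most the 3 genes of highest mean RPKM per list and the 5 most similar profiles were named, with exceptions stated. Alternatives covered pseudocount, filter, scaling, trend, a replicate block and each library left out. One listed regulator lacked a matching annotation and was dropped, and protein and promoter sequences were not used here. No explanation was tested.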

Additional observations from a re-analysis of the deposited data

How the results depend on the processing

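The 0 calls among the 6 Lhca genes held under all alternatives with 6 libraries, and the count ran from 0 to 4 when each library was left out in turn, with 4 without WT replicate 1. With 6 libraries, the limma adjusted p of the 6 genes ran from 0.42 to 0.95 and all log2 fold changes kept their sign. With each library left out, Lhca5 ran from -0.60 to 0.26, Lhca6 from -0.27 to 0.35 and Lhca2 from -0.074 to 1.67. The log2 ratio of arithmetic means, chosen after seeing the data, had the opposite sign for Os06g0320500 (-0.092), Lhca2 (-0.35), Lhca3 (-0.41) and Lhca4 (-0.56), since it weighs WT replicate 1 more. Over all genes, limma called 30 higher and 7 lower. It called 19 and 6 with a pseudocount of 0.1, 28 and 24 after quantile normalisation, and 51 and 57 when RPKM was scaled by the median of ratios. Leaving out each library in turn gave 8 to 1532 higher and 0 to 1181 lower. Quantile normalisation moved the median of all genes to -0.03 and median of ratios scaling moved it to 0.01, against 0.11 for RPKM as deposited. Same-numbered libraries correlated at -0.06, -0.03 and 0.13 in their deviations, and the other pairs at -0.11 to 0.12. These values do not settle whether the numbers pair libraries. The replicate block gave 16 higher and 4 lower, and 0 Lhca genes. Depth did not limit these genes, as each had at least 392 reads per library.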

Other observations

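Chlorophyll synthesis, which supplies the pigment of the antenna proteins, was covered by 10 listed genes. Of these, 0 were called in limma with all libraries and 2 had an unadjusted p under 0.05. Over all 24380 tested genes, 0.152% were called and 4693 had an unadjusted p under 0.05. These counts with all libraries do not set the list apart. Without WT replicate 1, 4 of the 10 were called higher and 0 lower, against 6.28% and 4.84% of all tested genes. As above, that fit cannot tell genotype from the difference within WT. All osnat10 libraries lay between WT replicate 1 and the other WT libraries for 4 of the 10, against 3.70% of all tested genes. The members named next were chosen after their values were seen. OsChlH, the porphyrin-binding subunit of magnesium chelatase, followed the antenna pattern, with 64.1, 63.2 and 57.0 RPKM in osnat10 and 194, 4.34 and 6.57 RPKM in WT replicates 1, 2 and 3. OsPorA, a light-dependent protochlorophyllide reductase, did not, with 57.0, 35.7 and 51.9 RPKM in osnat10 and 16.1, 2.65 and 12.4 RPKM in WT (log2 fold change 2.45, SE 0.57, limma adjusted p = 0.10). The genotypes did not overlap for OsPorA or for ChlM, another listed gene, while 8 of the 10 overlapped. Over all tested genes, the RPKM of 25.0% did not overlap. YGL1, the chlorophyll synthase gene, varied little, with 102, 109.8 and 102 RPKM in osnat10 and 90.1, 78.4 and 131 RPKM in WT.

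Among all genes, Os06g0320500 ranked 85 to 102 by RPKM in the osnat10 libraries and 30, 803 and 1050 in WT replicates 1, 2 and 3. Lhca4 ranked 238 to 330 in osnat10 and 34, 5196 and 6960 in WT. All Lhca reads together made up 0.178% to 0.203% of the reads in osnat10 libraries and 0.626%, 0.0574% and 0.0471% in WT replicates 1, 2 and 3, each with a 95% Wilson interval narrower than the differences within WT (0.622% to 0.630% in WT replicate 1 and 0.0562% to 0.0587% in WT replicate 2). These intervals cover counting error only.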
